A study of Mus musculus with 2 samples.

Results

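The transcripts of 53 cell cycle and mitosis genes were compared between Pparg-cKO and control ureters of the mouse at E18.5. The genes were taken from a list of names: cyclins and cyclin-dependent kinases, replication factors, mitotic kinases, kinetochore and spindle proteins, cell cycle transcription factors and inhibitors of cyclin-dependent kinases. All 53 were present on the array, with 79 probes and 316 spots per array, among 29923 genes measured. RNA of whole dissected ureters was pooled by genotype and sex and hybridised to 2 two-colour Agilent arrays, so that 4 pools were measured. Pparg-cKO embryos were Pax2-cre/+; Pparg(fl/fl). Control embryos were littermates without cre, labelled Pparg(fl/?) with the other allele not stated, and both genotypes were of the NMRI strain. Replicate 1 compared female pools and replicate 2 compared male pools. Within the ureter, Pax2-cre acts in the epithelium, a derivative of the nephric duct, and not in the mesenchyme, and recombination removes exons 2 and 3 of Pparg. The study counted proliferating urothelial nuclei in tissue sections by the Ki67 antigen, and the arrays allow the companion question of whether transcripts of the cell cycle machinery differed in RNA of the whole ureter.

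A cell enters the cycle when D-type cyclins with Cdk4 or Cdk6, and then E-type cyclins with Cdk2, release E2F transcription factors from the retinoblastoma proteins. E2F factors activate genes of DNA replication, and a later wave driven by Mybl2 and Foxm1 activates genes of G2 phase and mitosis, where cyclin B with Cdk1 starts mitosis and the spindle checkpoint holds anaphase until chromosomes are attached. Inhibitors of the Cip/Kip family (Cdkn1a, Cdkn1b, Cdkn1c) and of the INK4 family (Cdkn2a, Cdkn2b) restrain these kinases, and Cdkn1a is a target of p53. In the fetal ureter, both the urothelium and the surrounding mesenchyme still divide before birth, whereas the mature urothelium is largely quiescent.

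Much of this timing is written in short promoter elements. The CCAAT box binds NF-Y, the cell cycle homology region (CHR) binds the DREAM and MuvB complexes, and the E2F site binds E2F factors. Promoters were read from RefSeq (GRCm38.p6), from 250 bases before to 50 bases after the start, for the 42 members held in the table. CCAAT, searched on both strands as all words here, stood in 29 of the 42 (69.0%), against 37.9% of all 27025 promoters and 38.3% of the 13401 promoters of genes tested here. A CHR word, TTTGAA or TTCGAA, stood in 19 of the 42 (45.2%), against 19.4% and 14.8%. In the 250 bases before the start alone it stood in 10 of the 42 (23.8%), against 17.4% and 13.2%, a lower count than with the 50 bases after the start. An E2F word stood in 12 of the 42 (28.6%), against 9.69% and 14.7%, where the words searched were TTCCCGC as well as TTGGCGC, and the related forms TTCGCGC and also TTGCCGC. By role, E2F words were found in 6 of 9 replication promoters (5 before the start alone). CHR words were found in 5 of 6 promoters of G2 and mitotic kinases and cyclins, in 4 of 5 of the spindle checkpoint and anaphase group and in 7 of 10 of the chromosome, kinetochore and spindle group. Before the start alone these CHR counts were 2 of 6, 2 of 5 and 3 of 10. In 3 of the 42 promoters (Ccnb1, Cdca8 and Mcm7) words of different kinds overlapped. The pattern can be read in 4 promoters, each given as the 250 bases before the start with the words in capitals: Mcm6 (chr1:128359706-128359955, minus strand) of the replication group, Cdk1 (chr10:69352913-69353162, minus strand) of mitotic entry, Mki67 (chr7:135716380-135716629, minus strand) as the marker of cycling cells, and Cdkn1a (chr17:29090729-29090978, plus strand) as the inhibitor with the lowest mean log2 ratio.
Mcm6: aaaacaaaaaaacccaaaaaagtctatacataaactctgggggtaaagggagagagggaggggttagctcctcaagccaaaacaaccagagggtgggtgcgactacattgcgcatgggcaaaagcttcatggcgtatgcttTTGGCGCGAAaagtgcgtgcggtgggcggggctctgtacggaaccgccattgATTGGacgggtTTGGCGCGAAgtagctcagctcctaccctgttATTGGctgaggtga
Cdk1: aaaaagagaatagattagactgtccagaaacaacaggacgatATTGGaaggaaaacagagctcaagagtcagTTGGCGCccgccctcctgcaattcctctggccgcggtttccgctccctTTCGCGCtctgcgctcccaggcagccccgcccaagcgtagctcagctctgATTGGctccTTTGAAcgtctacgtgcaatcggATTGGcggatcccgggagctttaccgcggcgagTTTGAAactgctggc
Mki67: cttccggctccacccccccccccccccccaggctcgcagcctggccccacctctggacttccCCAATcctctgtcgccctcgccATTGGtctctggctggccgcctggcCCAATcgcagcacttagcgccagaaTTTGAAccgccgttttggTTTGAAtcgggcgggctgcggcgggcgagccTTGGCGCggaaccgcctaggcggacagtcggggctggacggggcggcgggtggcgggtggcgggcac
Cdkn1a: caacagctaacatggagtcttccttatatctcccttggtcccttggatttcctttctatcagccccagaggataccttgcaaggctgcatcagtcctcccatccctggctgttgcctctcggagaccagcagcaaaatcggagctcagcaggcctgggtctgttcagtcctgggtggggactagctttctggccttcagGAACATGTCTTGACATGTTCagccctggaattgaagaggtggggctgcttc
The Cdk1 window held all 3 kinds of word, with a CHR word at 15 bases before the start. The Mcm6 window held pairs of overlapping E2F words at 109 and 106 and at 46 and 43 bases before the start. None of the 3 kinds of word stood in the Cdkn1a window. The table holds a single start for each gene, and whether the transcript read by the brightest Cdkn1a probe begins at this one is not known, so the window may not be its promoter. Its capitals mark instead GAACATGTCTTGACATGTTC, 51 bases before the start of the RefSeq entry, which has the form of a p53 response element. Its core, a pair of CATG words 6 bases apart, was chosen as a search word after the sequence was seen. It stood in 1 of the 42 member promoters, that of Cdkn1a, and in 0.770% of all promoters.

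Signs follow the deposited table, in which a positive value means more RNA in the Pparg-cKO pool. The dye labels state the opposite orientation on both arrays: if they are right as written, every higher and lower here is exchanged, while sizes, counts and p-values stay. The deposited direction is the likely one, since the study's tissue sections at this stage, which do not depend on the dyes, describe superficial urothelial genes in that direction. In it the superficial markers Krt20 and Upk3b had mean log2 ratios of -3.09 and -1.67. The sections also show that a Pparg transcript without the floxed exons was made in Pparg-cKO ureters and was more abundant at this stage, so that a higher array signal does not oppose the genotype. Pparg on chromosome 6 (115440213 to 115440272, mm9) gave a processed signal of 12357 in the female and 12929.6 in the male Pparg-cKO pool against 6113 and 6688 in the controls, and whether the probe lies within the deleted exons was not examined. Dye orientation, sex and array changed together and cannot be told apart. Green and red median signals lay between 58.98 and 65.27, 0 spots were saturated, and the median log2 ratio of the 22499 genes tested was -0.01 on replicate 1 and 0.01 on replicate 2. In these bulk samples, fewer cells of a type and less RNA per cell cannot be told apart.

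In RNA of the whole ureter, the cell cycle genes as a set stayed close to the control level. None of the 53 members passed the fold rule of the study, at least 1.5-fold the same way on both arrays with a processed signal of at least 100, which 1.15% of all genes tested passed. None had an adjusted p under 0.05 in limma with Benjamini-Hochberg adjustment over the 22499 genes, against 0.751% of all genes. The smallest adjusted p of a member was 0.270. At an unadjusted p under 0.05 stood 3 members, Cdkn1a, Cdkn2b and Foxm1, which is 5.66% of the members against a background of 8.51%. The mean log2 ratio of the members ran from -0.63 for Cdkn1a to 0.39 for Foxm1, and 49 of the 53 lay within 1.2-fold (a log2 ratio of 0.26). The median over the members was 0.07 on replicate 1 and 0.05 on replicate 2.

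**Figure D1:**
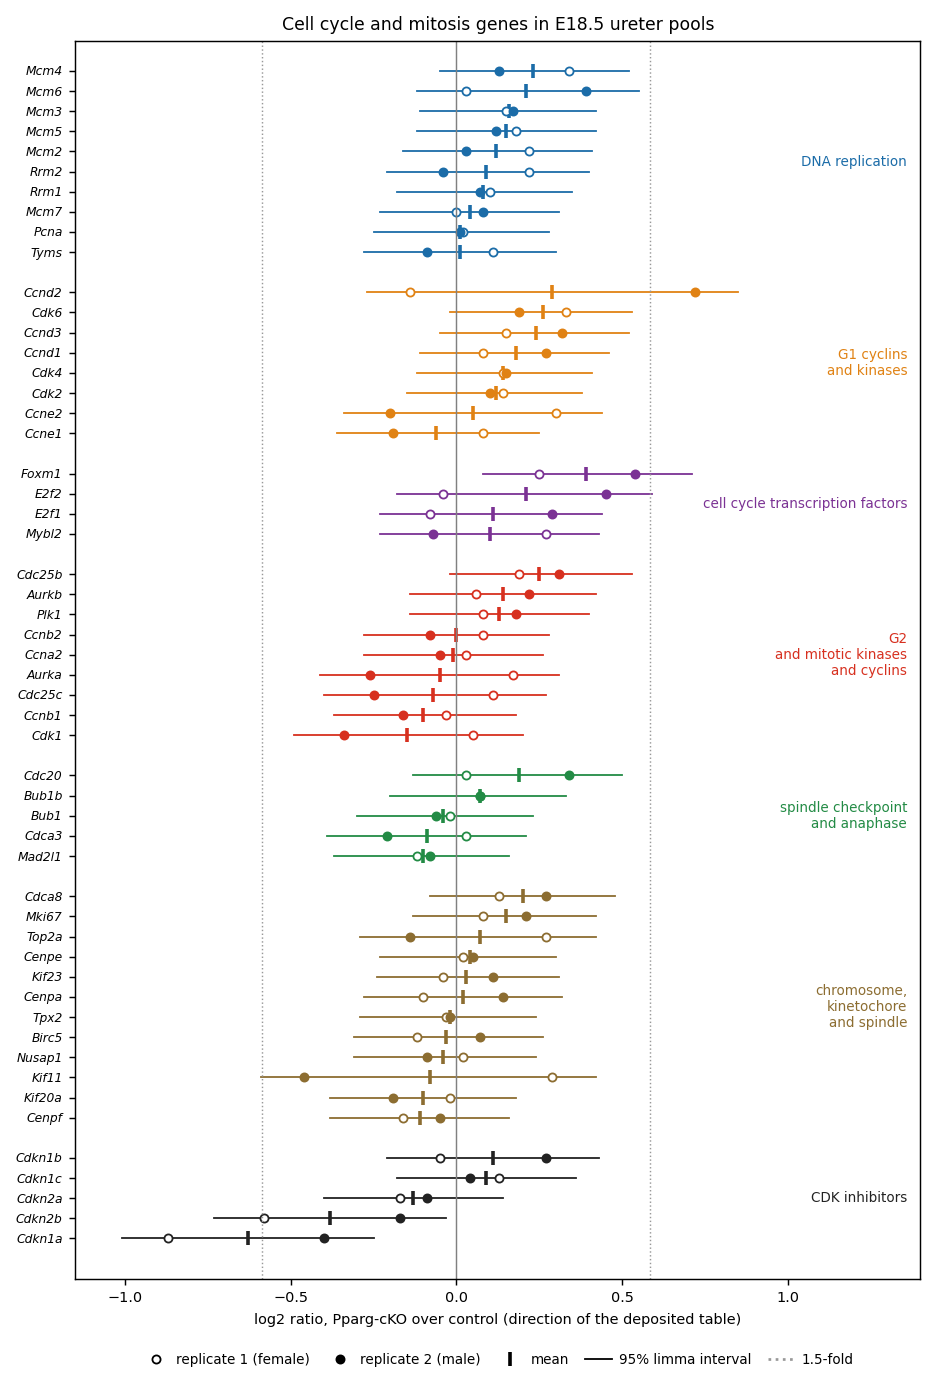
Log2 ratio of Pparg-cKO over control for each of the 53 members, by role; open circles are replicate 1 (female), filled circles replicate 2 (male), ticks the mean, lines the 95% interval from limma and dotted lines 1.5-fold. All intervals except those of Cdkn1a, Cdkn2b and Foxm1 cross 0, and no member lies beyond 1.5-fold on both arrays; Cdkn2a was well above background in 1 channel per array only.

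The intervals show how large a difference in RNA of the whole ureter could have been missed. They set no bound on a difference within the urothelium alone, since each pool also held RNA of the mesenchyme, where Pax2-cre does not act. The 95% interval from limma had a median half-width of 0.28 on the log2 scale, with a range from 0.26 to 0.56. It lay inside 1.5-fold in both directions for 47 of the 53 members and inside 2-fold for 52, with Cdkn1a as the exception. The SD between the arrays had a median of 0.12 for the members and 0.12 for all genes tested, and the SD between spots of a member's probe had medians of 0.12 and 0.14. A difference of about 1.2-fold in a single member could thus not be told from 0 with 2 arrays.

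The signs of the 2 arrays were compared as well. Of the 53 members, 22 (41.5%) were higher in the Pparg-cKO pool on both arrays, a pattern found in 26.6% of all genes tested, 9, with Cdkn2a counted, were lower on both, against 26.2%, and 22 had opposite signs, against 47.2%. The Pearson correlation of the 2 arrays across the 53 genes was 0.16, against 0.45 across all genes tested. Without Cdkn1a, Cdkn2b and Foxm1, left out after their values were seen, the correlation over the members was -0.19. Genes are not independent replicates, and each array's ratios share their dyes and pools.

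**Figure D2:**
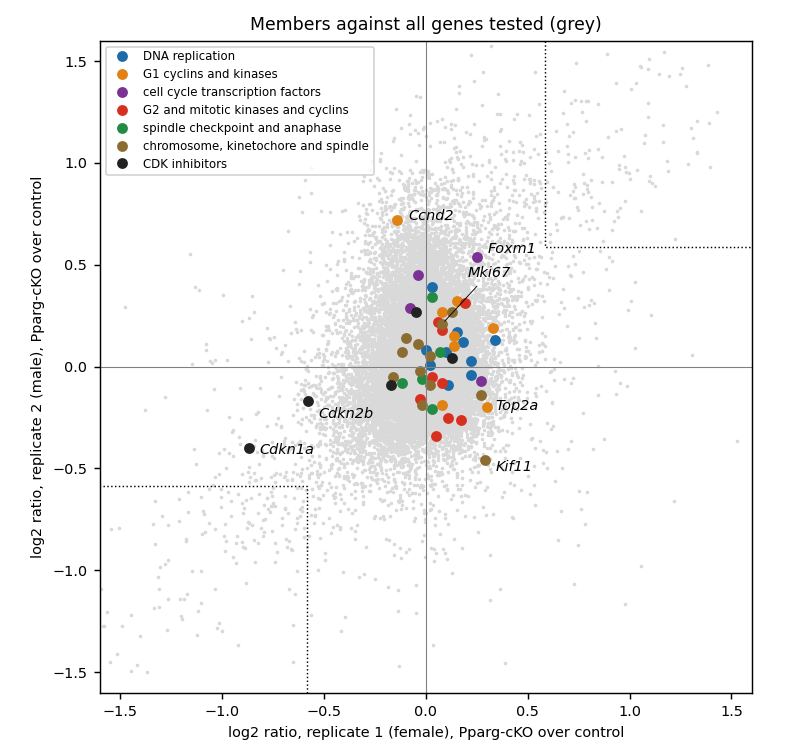
Log2 ratio on replicate 1 (x axis) against replicate 2 (y axis) for the members, coloured by role, over the genes tested in grey; 102 genes tested lie beyond 1.6 on an axis and are not drawn, and dotted corners mark 1.5-fold on both arrays. No member lies beyond a corner, and Cdkn1a at -0.87 and -0.40 is nearest to one.

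None of the 10 replication genes passed the fold rule or limma, and every 95% interval crossed 0. Of these genes, which are the helicase subunits Mcm2 to Mcm7, the polymerase clamp Pcna, the ribonucleotide reductase subunits Rrm1 and Rrm2 and thymidylate synthase Tyms, 7 were higher on both arrays and 0 were lower on both. The median log2 ratio was 0.13 on replicate 1 and 0.08 on replicate 2. Mcm4 had the highest mean. Its processed signal was 4605 and 4612 in the female and male Pparg-cKO pools and 3659 and 4167 in the controls. Each Pparg-cKO pool was above its own control, with a log2 ratio of 0.23 ± 0.15 (SD, n = 2; 95% interval -0.05 to 0.52). Tyms, at the other end of the group, had signals of 264 and 256 in the Pparg-cKO pools and 237 and 270.2 in the controls, and a log2 ratio of 0.01 ± 0.14 (SD, n = 2; 95% interval -0.28 to 0.30). Pcna was as flat, at 0.02 and 0.01 on the 2 arrays. Mcm6 gave 0.03 on replicate 1 and 0.39 on replicate 2. The other 6 had mean log2 ratios between 0.04 for Mcm7 and 0.16 for Mcm3. Among 46 further replication genes, such as origin licensing factors, polymerase subunits and the clamp loader, 18 were higher on both arrays, 2 were lower on both, and 0 passed the fold rule or limma. Their median log2 ratio was 0.14 on replicate 1 and -0.03 on replicate 2.

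None of the 8 G1 cyclins and kinases passed either test. Of these genes, 5 were higher on both arrays (Ccnd1, Ccnd3, Cdk2, Cdk4 and Cdk6), 0 were lower on both, 3 had opposite signs, and the group median was 0.14 and 0.17. Ccnd1, the cyclin D1 gene that couples growth signals to entry into the cycle, had signals of 2694 and 3343 in the female and male Pparg-cKO pools and 2429.8 and 2773 in the controls. Each Pparg-cKO pool was higher than its own control, but the female Pparg-cKO pool lay below the male control, on signals not scaled between the arrays. The log2 ratio was 0.18 ± 0.14 (SD, n = 2; 95% interval -0.11 to 0.46; adjusted p = 0.769 in limma). Ccnd2, another D-type cyclin, had signals of 4106 and 6294 in the Pparg-cKO pools and 4359 and 4031 in the controls, so that the male Pparg-cKO pool alone stood out. Its log2 ratio was -0.14 on replicate 1 and 0.72 on replicate 2, and the interval of the mean was -0.27 to 0.85, the widest among the members. Ccne1, a partner of Cdk2, stood lowest, with signals of 1036 and 891 against 965 and 1048 and a log2 ratio of -0.06 ± 0.19 (SD, n = 2; 95% interval -0.36 to 0.25). Ccne2 and Cdk6 were dim, with signals of at most 80.5 in any pool.

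Among the transcription factors Foxm1 had the highest ratio of all 53 members. Foxm1, a forkhead factor that activates G2 and mitotic genes, was measured on chromosome 6 at 128324783 to 128324842 (mm9). It had signals of 266 in the female and 409 in the male Pparg-cKO pool and 236 and 275 in the controls. Both Pparg-cKO pools were above their own controls, and the female Pparg-cKO pool was below the male control, again on signals not scaled between the arrays. The log2 ratio was 0.39 ± 0.21 (SD, n = 2; 95% interval 0.08 to 0.71), with an adjusted p of 0.451 in limma (unadjusted p = 0.0233), and 96.5% of the genes tested had a lower mean ratio. A second, dimmer probe of Foxm1 gave 0.04 and 0.51 on the 2 arrays. The E2F genes E2f1 and E2f2 had log2 ratios of -0.08 and 0.29 and of -0.04 and 0.45, higher on replicate 2 only. Mybl2, the B-Myb gene, had signals of 338 and 349.7 against 289 and 376, and a log2 ratio of 0.10 ± 0.24 (SD, n = 2; 95% interval -0.23 to 0.43). Of 18 further genes for pocket proteins, E2F factors and the DREAM complex, 7 were higher on both arrays, 1 was lower on both and 0 passed either test.

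Genes of G2 phase and mitosis, among them known targets of Foxm1, had ratios on both sides of 0. The 9 kinases, cyclins and phosphatases of mitotic entry had a median log2 ratio of 0.08 on replicate 1 and -0.08 on replicate 2, with 3 higher on both arrays and 1, Ccnb1, lower on both. Cdc25b, a phosphatase that activates Cdk1, had the highest ratio of the group, with signals of 581 and 779.9 in the Pparg-cKO pools and 500.3 and 639 in the controls and a log2 ratio of 0.25 ± 0.09 (SD, n = 2; 95% interval -0.02 to 0.53). Cdk1, the kinase that starts mitosis, had the lowest. Its signals were 1946 and 1509.7 in the Pparg-cKO pools and 1867 and 1961 in the controls. The female pools were thus alike and the male Pparg-cKO pool was the lowest of the 4, with a log2 ratio of -0.15 ± 0.28 (SD, n = 2; 95% interval -0.49 to 0.20). The cyclin genes Ccna2 and Ccnb2 had mean log2 ratios of -0.01 and 0.00. Aurkb was dim, with signals of 14.8 to 19.1.

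The spindle checkpoint and anaphase group (Bub1, Bub1b, Mad2l1, Cdc20, Cdca3) had medians of 0.03 and -0.06, with 2 genes higher and 2 lower on both arrays. Cdc20, the activator of the anaphase-promoting complex, had signals of 2907 and 3468 in the Pparg-cKO pools and 2712 and 2883 in the controls. Each Pparg-cKO pool was above its own control, and the log2 ratio was 0.19 ± 0.22 (SD, n = 2; 95% interval -0.13 to 0.50). Mad2l1, a checkpoint protein that inhibits Cdc20, had signals of 3493 and 3331 against 3608 and 3763. It was lower in each Pparg-cKO pool than in its own control, with a log2 ratio of -0.10 ± 0.03 (SD, n = 2; 95% interval -0.37 to 0.16).

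Mki67, which encodes the Ki67 antigen, is a member of the chromosome, kinetochore and spindle group. Its brightest probe, at 142881591 to 142881650 of chromosome 7 (mm9), had a processed signal of 7439.9 in the female and 8198 in the male Pparg-cKO pool and 6707 and 7344 in the controls. Each Pparg-cKO pool was above its own control. The log2 ratio was 0.08 on replicate 1 and 0.21 on replicate 2, with a mean of 0.15 ± 0.09 (SD, n = 2; 95% interval -0.13 to 0.42; adjusted p = 0.806 in limma), which is 1.11-fold. A second probe gave 0.06 and 0.13. Top2a, the topoisomerase that untangles chromosomes before anaphase, had signals of 1973 and 1758 in the Pparg-cKO pools and 1671 and 1988 in the controls. Its ratio was above the control on replicate 1 and below it on replicate 2, at 0.27 and -0.14 (95% interval of the mean -0.29 to 0.42).

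The 12 genes of this group had a median of 0.00 and 0.02 on the 2 arrays, with 3 higher and 3 lower on both. Cdca8, a subunit of the chromosomal passenger complex, had the highest mean, with signals of 926 and 1245 against 838 and 1089 and a log2 ratio of 0.20 ± 0.10 (SD, n = 2; 95% interval -0.08 to 0.48). Cenpf, a kinetochore protein, had the lowest, with dim signals of 44.8 and 48.0 against 47.9 and 57.2 and a log2 ratio of -0.11 ± 0.07 (SD, n = 2; 95% interval -0.38 to 0.16). The other 10 means lay between -0.10 and 0.15. Of 60 further mitotic genes, such as condensin, kinesin and kinetochore genes, 20 were higher and 16 lower on both arrays, 0 passed either test, and the medians were 0.04 and -0.06.

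The CDK inhibitors held the member with the largest ratio in size, Cdkn1a, and none of the 5 passed the fold rule or limma. Cdkn1a, which encodes p21, had processed signals of 105 in the female and 131 in the male Pparg-cKO pool and 203 and 182 in the controls. Each Pparg-cKO pool was lower than its own control. The log2 ratio was -0.87 on replicate 1 and -0.40 on replicate 2, with a mean of -0.63 ± 0.33 (SD, n = 2; 95% interval -1.01 to -0.25), a size of 1.55-fold. The unadjusted p was 0.00774 and the adjusted p 0.270 in limma, so the difference did not pass the threshold, and the fold rule was met on replicate 1 only. Only 1.06% of the genes tested had a lower mean ratio. Cdkn1a was also the member that passed when the fold rule was set at 1.2-fold, which 3.84% of all genes tested passed. Of its probes on chromosome 17 (mm9), the one at 29237377 to 29237436, used above, was the brightest, and the one at 29235299 to 29235358 gave -0.53 and -0.16 at signals of 12.2 to 26.5. The remaining probe, at 29227986 to 29228045, had signals of 7.74 to 13.3 and was well above background in 3 of the 4 pools. It gave -0.23 and -0.09, at signals too near background to rely on for a direction.

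Cdkn2b, which encodes the INK4 protein p15, was measured on chromosome 4 at 88952276 to 88952335 (mm9). It had signals of 142 and 212 in the Pparg-cKO pools and 223 and 243 in the controls. Here too each Pparg-cKO pool was lower than its own control, with the male pools close to each other. The log2 ratio was -0.58 on replicate 1 and -0.17 on replicate 2, with a mean of -0.38 ± 0.29 (SD, n = 2; 95% interval -0.73 to -0.03; unadjusted p = 0.0399, adjusted p = 0.551 in limma). A second, dimmer probe gave -0.33 and 0.03, so that replicate 2 gave no difference by it. Cdkn2a, its neighbour on chromosome 4, was well above background only in the green channel of each array, with signals of 2.72 and 3.57 in the Pparg-cKO pools and 5.15 and 4.37 in the controls. Each genotype was thus measured on 1 of the 2 arrays, and no fold is given. Its values enter the counts and medians over members, and it is itself the median of the 5 inhibitors, for which no median is read here. Cdkn1b, which encodes p27, had signals of 1120.5 and 1295 against 1085 and 1193 and a log2 ratio of 0.11 ± 0.23 (SD, n = 2; 95% interval -0.21 to 0.43). Its 2 probes disagreed: the dimmer one gave 0.46 and -0.50. Cdkn1c, which encodes p57, had signals of 18513 and 16475 against 16553 and 15856 and a log2 ratio of 0.09 ± 0.06 (SD, n = 2; 95% interval -0.18 to 0.36). Without Cdkn2a, the ratios of the inhibitors lay on both sides of 0.

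**Figure D3:**
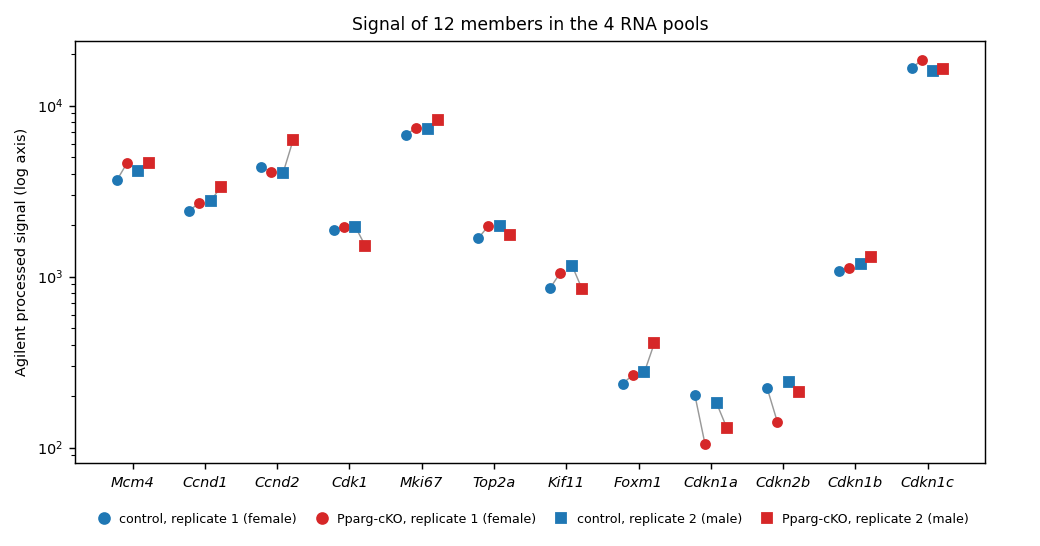
Processed signal (log axis) of 12 members in the 4 pools; circles are replicate 1 (female), squares replicate 2 (male), blue the controls and red the Pparg-cKO pools, with a line joining the pools of 1 array. Signals are to be compared within a gene, since probes differ in brightness; Cdkn1a runs from 203 to 105 on replicate 1 and from 182 to 131 on replicate 2.

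A further list held 23 other CDK inhibitors and p53 targets. It was chosen with earlier results of these data known, so its shares describe the list and test nothing. Among these, 8 were higher and 8 lower on both arrays, and 5 (21.7%) had an unadjusted p under 0.05, against 8.51% of all genes tested, of which 4 were below the control level. The fold rule was passed by 2 of the 23, Btg2 and Gadd45b, against 1.15% of all genes tested, and limma by 0. Btg2 is an antiproliferative p53 target on chromosome 1. Its signals were 824 and 807 in the Pparg-cKO pools and 1416 and 1421 in the controls, with a log2 ratio of -0.82 ± 0.05 (SD, n = 2; adjusted p = 0.0604 in limma). The 2 arrays were close to each other for this gene. Gadd45b, a stress-induced gene of the Gadd45 family, was higher in each Pparg-cKO pool than in its own control. Its signals were 657 and 875 against 366 and 423, with a log2 ratio of 0.96 ± 0.16 (SD, n = 2; adjusted p = 0.0510 in limma). The other three, named after their values were seen, were Ccng1, a p53 target, at -0.33 (adjusted p = 0.454 in limma), Trp53inp1, another p53 target, at -0.44 (adjusted p = 0.483 in limma), and Cdkn3, a phosphatase acting on Cdk1 and Cdk2, at -0.37 (adjusted p = 0.494 in limma). The rest of the list had mean log2 ratios from -0.27 for Plk3 to 0.36 for Bbc3, with Mdm2, the feedback inhibitor of p53, at -0.08 (95% interval -0.34 to 0.18).

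Probes of the same gene differed little in most cases. Of the 17 members with at least 2 probes well above background in all 4 pools, the probe means of 13 had the same sign, and the spread of the mean log2 ratio between a member's probes had a median of 0.10. The largest spread was 0.29, for Cdkn1a. Cdk4 had 4 probes, all with ratios between 0.04 and 0.15 on both arrays.

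The ratios were also set against the promoter words. The median of the mean log2 ratio was 0.11 with and 0.03 without an E2F word, 0.03 with and 0.09 without a CHR word, and 0.07 with and -0.03 without CCAAT.

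Marker lists of cell types were set beside these values. They do not give cell numbers, since a marker can change within a cell type. The study reports a luminal cell layer still present in Pparg-cKO ureters, with superficial genes reduced or absent in it. It also reports KRT14 and KRT15 made ectopically by basal cells after birth. The 6 superficial urothelium markers (Upk genes and Krt20) were all lower on both arrays, with a median of the mean log2 ratio of -1.26 and a summed signal of 45366 and 49855 in the Pparg-cKO pools against 78083 and 67979 in the controls. The 5 basal urothelium markers had medians of 0.78 and 0.90, with 3 (Krt14, Krt15, Krt17) higher on both arrays, Trp63 lower on both and Krt5 at -0.86 and 0.35, and a summed signal of 5463 and 7321 against 5129 and 5159. Krt17, whose ratios of 0.78 and 0.90 equal these medians, was dim, with signals of at most 34.9 in any pool. The 12 epithelial markers had medians of 0.13 and 0.56, with 8 higher on both arrays, and summed signals of 44594 and 59934 against 51344 and 44660. No marker of these 3 lists was at background in all pools. Medians for fibroblast and mesenchyme were 0.18 and 0.04, for smooth muscle -0.21 and -0.08, for endothelium 0.04 and 0.14, for leukocytes 0.13 and 0.13, for erythroid blood 0.15 and -0.03 and for peripheral nerve -0.02 and 0.12. Lists named for other tissues had medians of -0.83 for liver, -0.38 for kidney tubule (4 of 6 markers tested, Umod and Slc12a1 not well above background) and -0.27 for skeletal muscle on replicate 2. On replicate 1 these medians were -0.09, -0.12 and -0.06. The skeletal muscle list holds Ckm, which also marks the smooth muscle of the ureter. The part of these cell types in the ratios of Cdkn1a, Cdkn2b, Foxm1 and Ccnd2 was not tested.

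**Figure D4:**
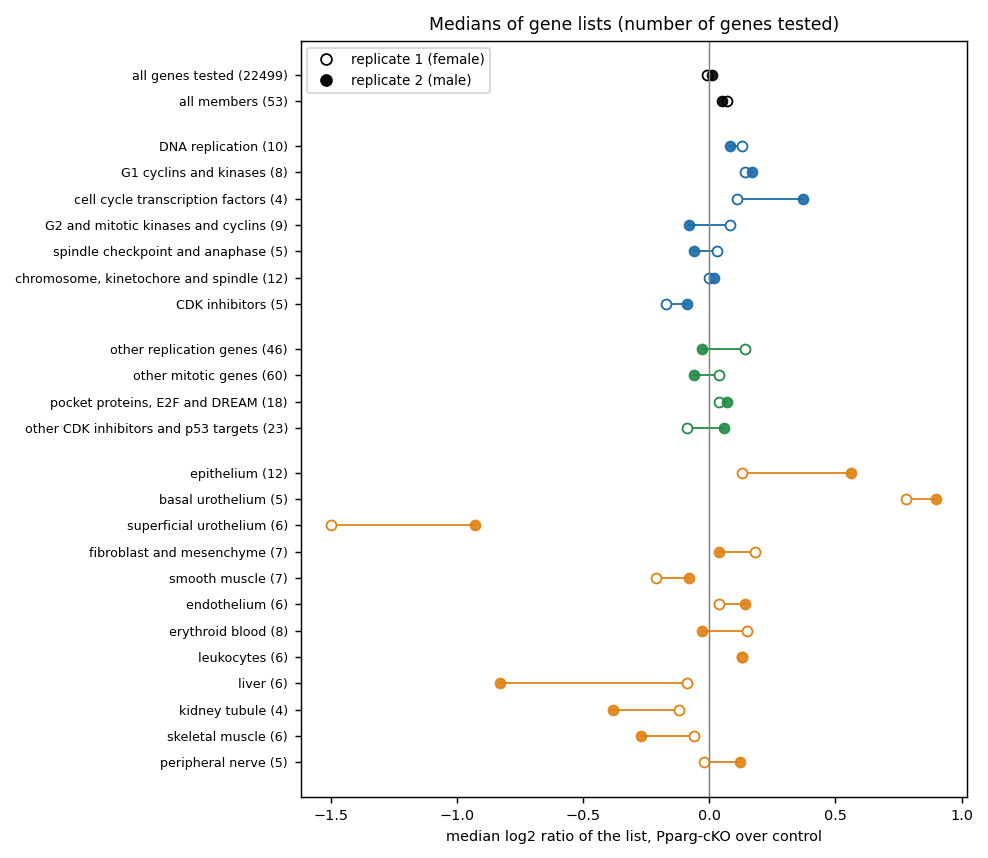
Median log2 ratio of each gene list on replicate 1 (open) and replicate 2 (filled), with the number of genes tested in brackets; black are all genes and all members, blue the members by role, green other cell cycle lists and orange cell type markers. Apart from the CDK inhibitors, whose median is the value of Cdkn2a, the cell cycle lists lie between -0.09 and 0.37, while the superficial urothelium list lies at -0.93 on replicate 2 and further left on replicate 1.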

How the data were processed

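Pools of sex-sorted E18.5 ureters were amplified in a single T7 round, labelled with AlexaFluor555 or AlexaFluor647 and exchanged between dyes on the arrays, which shared a slide. Per the labels the authors read spots with Agilent Feature Extraction 10.7.3.1. Linear spot intensity was held by the scanner output, per the file headers. The value table that the authors deposited gives fold changes with a sign, a score; its calculation is not given in the sources used here. It was used as an alternative and for the direction (r with red over green 0.986 and -0.992). Outlier spots (2.87% and 3.24%) were removed, mean signals corrected with normexp (offset 50) and normalised by loess in limma 3.58.1 (R 4.3.3), and 4 spots per probe averaged. The brightest probe stood for a gene. Genes whose probe was well above background on each array (1 channel sufficed) were fitted with lmFit and eBayes, two-sided; the residual degree of freedom was 1, the prior 4.00. The code was tested on simulated data. The number of arrays limits the precision. The 2 arrays differ in sex and dye orientation, and p-values measure only the spread between them. Signals in the text are processed signals, so their quotients differ from the normalised ratios. The gap can be wide for dim probes: Ccne2 had female signals of 31.0 and 21.2 and a log2 ratio of 0.30. For small differences the sign can differ: Bub1b had male signals of 775 in the Pparg-cKO pool and 812 in the control and a log2 ratio of 0.07. Processed signals were not scaled between the arrays. Members and lists were chosen with earlier results of these data known. Named were, per role, the members with the highest and lowest mean, and always Mki67, Top2a, Ccnd1 and the CDK inhibitors. The alternatives were other background correction, centring, probe summary, filter, thresholds, direction, and each array alone. Positions of probes come from the array design (mm9); all 53 symbols matched RefSeq.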

Additional observations from a re-analysis of the deposited data

Results flagged for a closer look

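Kif11, the kinesin that separates the spindle poles, was at least 1.2-fold higher in the Pparg-cKO pool on replicate 1 and at least 1.2-fold lower on replicate 2. Its processed signal was 1056 in the female Pparg-cKO pool against 861 in the female control, and 844 in the male Pparg-cKO pool against 1161 in the male control. The log2 ratios were 0.29 and -0.46, so that the male minus the female value was -0.75. With 1 array per sex the difference was not tested, and sex, dye orientation and array cannot be told apart.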

How the results depend on the processing

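The count of members past the limma threshold was 0 under each of the 8 alternatives with a test. The lowest adjusted p of any member was 0.0532, for Cdkn1a with a normexp offset of 0. By the fold rule, 0 members passed under the same 8 alternatives and with an intensity threshold of 200 or none, and 1 passed at 1.2-fold (Cdkn1a) and on each array alone (Ccnd2 on replicate 2, Cdkn1a on replicate 1). Of the 53 members, 42 kept the sign of the mean under all 7 processing alternatives. The mean of Cdkn1a ran from -0.71 to -0.35, that of Cdkn2b from -0.44 to -0.26 and that of Foxm1 from 0.33 to 0.49, with Cdkn1a and Cdkn2b nearest to 0 under the median over all probes of a gene.

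The median of the members (0.07) was 0.05 with processed signals or outlier spots kept, 0.09 with median centring, 0.04 with the median over all probes or the deposited table, and -0.07 in the direction of the dye labels. In that direction the means were -0.18 for Ccnd1, -0.39 for Foxm1, -0.15 for Mki67, -0.07 for Top2a, 0.63 for Cdkn1a, -0.11 for Cdkn1b, -0.09 for Cdkn1c, 0.38 for Cdkn2b, 0.82 for Btg2 and -0.96 for Gadd45b; it would also exchange the signs of the superficial markers Krt20 (-3.09) and Upk3b (-1.67), and it is the less likely one. On a single array Top2a ran from -0.14 to 0.27 and Cdkn1b from -0.05 to 0.27.

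Over all genes the fold rule called 258, 865 at 1.2-fold, and from 444 to 1253 on a single array. Limma called 169 genes, 0 with processed signals or the deposited table, 571 with offset 0 and 94 with no filter on dim probes. Of the 147 other cell cycle genes, 2 passed the fold rule, 1 with median centring and from 3 to 7 on a single array; limma called 0, 2 with offset 0 (Btg2 and Gadd45b, adjusted p 0.00846 and 0.00370) and 1, Gadd45b, with the median over all probes or outlier spots kept. In the window of 250 bases before the start only, CHR words stood in 10 of the 42 promoters (23.8%, against 17.4% of all) in place of 19. The cause of these shifts was not tested. The fit pairs the pools of an array by construction, and a dye or sex term would take the only residual degree of freedom. Single arrays allow no test.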
